A study of Mus musculus with 25 samples.

Results

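The genes described here are the nuclear genes for mitochondrial ribosomal proteins, taken as every symbol of the deposited gene table that starts with Mrpl or Mrps followed by a digit. There were 78 such genes among 14103, of which 49 carry a large subunit (Mrpl) and 29 a small subunit (Mrps) symbol, and none was a pseudogene. They were followed in single testis cells of mice at postnatal day 10, sorted for a 4N DNA content, from 1 wild-type (WT) library and 2 libraries of the Ythdc2 knockout (KO) line, written here as KO A and KO B. Per the labels, all lines were on a hybrid background of C57BL/6 and DBA/2. The KO line came from earlier work, and the sources used here do not give the missing part of the gene. The sample titles carry the word embryo beside P10, and the age label was followed. No label says that the KO libraries stem from separate animals, so the tests measure the spread between these libraries only, which may be technical. Bulk RNA and crosslinking samples of the same series were not analysed here.

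Mitochondria keep their own ribosome, which makes only the few membrane subunits of the respiratory chain and the ATP synthase that mitochondrial DNA still encodes. Its RNAs are mitochondrial, but all of its proteins are encoded in the nucleus, made in the cytosol and imported. Some descend from bacterial ribosomal proteins and others exist only in mitochondria. Meiotic germ cells remodel their mitochondria as they leave the spermatogonial stage, and YTHDC2 is an RNA helicase that germ cells need for that passage. By this division 47 of the 78 genes encode proteins of a bacterial family and 30 encode proteins specific to mitochondria. The remaining gene, Mrps36, keeps its historical symbol but encodes a subunit of the 2-oxoglutarate dehydrogenase complex. The symbols of Mrps30 and Mrps18a are historical as well, since both proteins sit in the large subunit.

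Promoter sequences are shown for 4 members that moved in opposite directions in the KO, chosen after their values were seen. Mrps15 and Mrps26 were higher and Mrpl17 and Mrpl57 lower in the KO cells of clusters 3 to 5. Each line gives the 250 bases before an annotated start, 5′ to 3′ on the gene's strand, from RefSeq on GRCm38.p6. The Mrpl57 window ends at 57826238, beyond the start of the gene at 57826228. Capitals mark matches on either strand to the motifs CGCANGCGC (NRF1), CCGGAAG (ETS family), AANATGGCG (YY1), GGGCGG (SP family), CCAAT and TATAAA. In the Mrpl17 sequence a GGGCGG match and the CCGGAAG match overlap. The windows counted below are longer than the bases shown. In them Mrps26 also has an NRF1 match, Mrps15 a CCAAT box and Mrpl57 an ETS match, none of them within the bases shown.
Mrps15, chr4:126046678-126046927, plus strand: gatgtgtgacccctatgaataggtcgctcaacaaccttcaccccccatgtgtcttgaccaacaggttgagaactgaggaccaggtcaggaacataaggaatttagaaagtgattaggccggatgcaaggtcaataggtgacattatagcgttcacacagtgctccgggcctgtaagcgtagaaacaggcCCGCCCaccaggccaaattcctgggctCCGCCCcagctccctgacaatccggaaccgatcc
Mrps26, chr2:130563507-130563756, plus strand: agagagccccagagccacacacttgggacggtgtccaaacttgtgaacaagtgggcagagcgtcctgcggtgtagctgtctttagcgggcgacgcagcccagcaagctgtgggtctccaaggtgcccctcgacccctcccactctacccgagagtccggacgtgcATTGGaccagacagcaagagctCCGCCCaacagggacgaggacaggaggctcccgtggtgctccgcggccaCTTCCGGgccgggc
Mrpl17, chr7:105811088-105811337, minus strand: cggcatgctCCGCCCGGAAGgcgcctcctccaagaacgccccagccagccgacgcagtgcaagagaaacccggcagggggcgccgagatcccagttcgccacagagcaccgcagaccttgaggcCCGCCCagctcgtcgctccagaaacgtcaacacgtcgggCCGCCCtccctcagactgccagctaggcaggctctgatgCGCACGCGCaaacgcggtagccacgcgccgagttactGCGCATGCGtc
Mrpl57, chr14:57825989-57826238, plus strand: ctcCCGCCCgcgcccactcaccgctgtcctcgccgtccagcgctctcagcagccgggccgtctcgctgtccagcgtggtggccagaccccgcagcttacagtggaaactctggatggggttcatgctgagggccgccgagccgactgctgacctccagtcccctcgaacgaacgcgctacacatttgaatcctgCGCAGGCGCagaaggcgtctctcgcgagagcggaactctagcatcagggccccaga

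Promoter windows were found for 69 of the 78 members and for 10684 genes of the matrix in all, each holding these 250 bases and a short stretch after the start. The NRF1 motif, which a factor that drives nuclear genes of mitochondria recognises, was in 26.1% of the members' windows and 15.4% of all windows. The ETS motif was in 37.7% against 19.8%, and the YY1 motif in 15.9% against 5.93%. Windows with the SP motif were fewer among members, 49.3% against 69.1%. The CCAAT box was in 39.1% against 43.4% and the TATA box in 7.25% against 8.41%. The matches are descriptions of letters in a window and were not tested. Among members called in clusters 3 to 5, the NRF1 motif was in 7 of 16 windows of genes higher in KO and in 6 of 23 windows of genes lower in KO. In the same order the ETS motif was in 5 and 8 of these windows, YY1 in 2 and 1, SP in 9 and 12, the CCAAT box in 6 and 11 and the TATA box in 1 and 3.

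The libraries held 1151 WT, 1522 KO A and 1855 KO B cells with 16342955, 18089957 and 25447581 UMIs (unique molecular identifiers, counted transcripts), and 0 cell barcodes were shared between libraries. Ythdc2 itself stood at 196 CPM (counts scaled to a library of 1000000 UMIs) in WT against 47.0 (KO A) and 42.6 (KO B). The authors' clusters are given by number. Their names describe cluster 1 as undifferentiated spermatogonia, cluster 2 as differentiating spermatogonia, cluster 3 as leptotene-zygotene spermatocytes, and clusters 4 and 5 as mixes of the last 2. Markers of undifferentiated spermatogonia were highest in cluster 1 and those of leptotene-zygotene cells in cluster 3, but differentiating markers were higher in WT cluster 3 (1767 CPM) and KO clusters 4 and 5 (1571 to 2590 CPM) than in cluster 2 of any library (730 to 1077 CPM). Cluster 3 held 427 WT cells and 0 KO cells. Cluster 4 held 24 WT, 592 KO A and 441 KO B cells, and cluster 5 held 1, 335 and 510. Genotype and cluster therefore cannot be told apart in the comparison of clusters 3 to 5. WT had 5688301 UMIs there, against 10518233 and 12251061 in the KO libraries.

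Levels are given as normalised UMIs per cell, the mean over cells of the count divided by the authors' size factor of the cell. Together the 78 genes took between 0.808% and 1.03% of all UMIs in each cluster and library with at least 20 cells, which leaves out the single WT cell of cluster 5. WT cluster 1 had a summed level of 103.7, WT cluster 2 one of 106 and WT cluster 3 one of 111. For clusters 1, 2, 4 and 5 of KO A the sums were 91.4, 89.2, 88.2 and 111. Those of KO B were 98.6, 96.5, 93.0 and 110.5 in the same order. Both KO libraries thus lay below WT in clusters 1 and 2, and KO cluster 5 lay next to WT cluster 3. The 24 WT cells of cluster 4 had the lowest sum, 80.8 (exact Poisson 95% interval 77.3 to 84.6). From the lowest to the highest of these 12 groups the sum differed 1.37-fold, and 1.26-fold without the 24 WT cells of cluster 4.

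**Figure D1:**
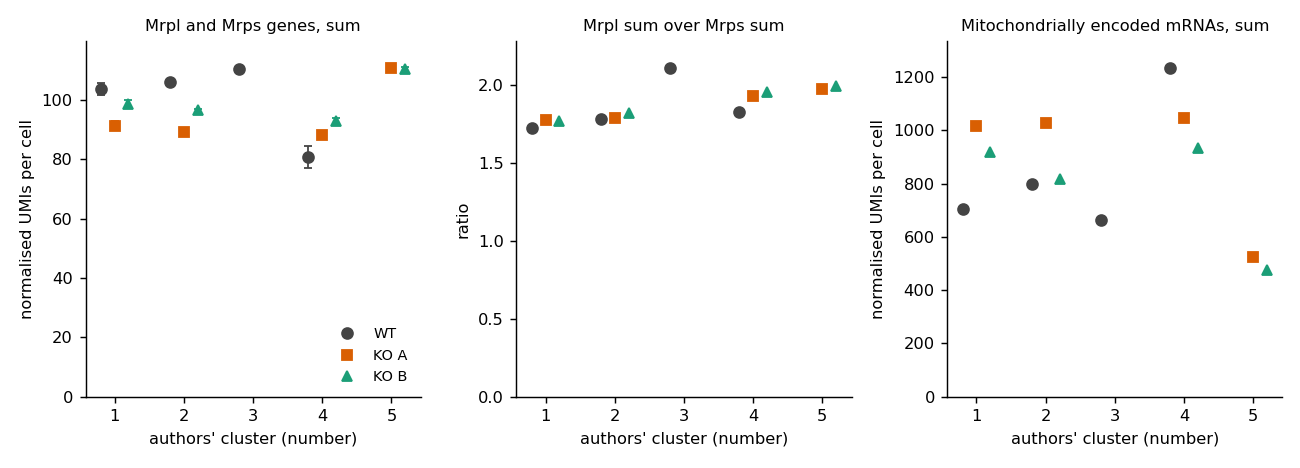
Left: summed level of the 78 Mrpl and Mrps genes (normalised UMIs per cell, with exact Poisson 95% intervals for counting error) by authors' cluster and library. Middle: sum of Mrpl over sum of Mrps genes. Right: summed level of the 13 mitochondrially encoded mRNAs. WT is dark, KO A orange and KO B green. The family's sum stayed within 80.8 to 111, while the mitochondrially encoded sum ranged from 477 in KO B cluster 5 to 1235 in WT cluster 4.

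The sum of the Mrpl genes over that of the Mrps genes was 1.72 to 1.82 in clusters 1 and 2 of every library. It was 2.11 in WT cluster 3, 1.93 and 1.95 in cluster 4 of KO A and KO B, and 1.97 and 1.99 in cluster 5. The 24 WT cells of cluster 4 had 1.83, next to cluster 2. For clusters 3 to 5 together it was 2.10 in WT against 1.95 (KO A) and 1.98 (KO B). Over all cells the ratio was 1.90 in WT against 1.89 (KO A) and 1.90 (KO B). Genes with Mrpl symbols therefore made up more of the family's sum in WT cluster 3 and KO clusters 4 and 5 than in cluster 2. From WT cluster 2 to cluster 3 the Mrpl sum went from 67.95 to 75.1 and the Mrps sum from 38.13 to 35.54. A few genes weighed much in the Mrpl rise: Mrpl17 went from 2.59 to 5.07, Mrpl20 from 2.21 to 4.50, Mrpl55 from 1.32 to 2.68 and Mrpl48 from 1.06 to 2.34. Mrps18a, Mrps30 and Mrps36 counted as Mrps genes. The ratio of the KO libraries lay below that of WT in clusters 3 to 5 and next to it over all cells.

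Single members differed in opposite directions between clusters, while the sum changed little. From cluster 2 to cluster 3 in WT, 14 of 77 members stood at 1.5 times their cluster 2 level or more and 14 at 0.667 times or less. Among 8619 genes with the same minimum of UMIs, 20.8% and 33.1% did so. Mrps18a, whose protein sits at the large subunit, had the highest ratio, 2.36, with a level of 0.331 in cluster 2 and 0.781 in cluster 3. The Mrps18a gene shares 6871 bases with Rsph9, another gene of the matrix, and how reads there were assigned is not known. Mrpl48, a protein of the central protuberance, went from 1.06 to 2.34. Mrpl55, a mitochondria-specific protein, went from 1.32 to 2.68, and Mrpl20, which binds the large rRNA early in assembly, from 2.21 to 4.50. At the other end Mrps30 went from 0.703 to 0.306. Mrpl22, which lines the exit tunnel, went from 1.03 to 0.453. Mrps26 went from 1.74 to 0.924 and Mrps2 from 0.464 to 0.249. Clusters were made from the genes of the same cells, so these steps carry no test.

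In the KO libraries fewer members stood low against cluster 2, and so did fewer genes overall. Over the 4 steps of the KO libraries 17.9% to 22.0% of all genes were at the lower limit or below, and 13.35% to 15.9% at the upper limit or above. In cluster 5 of KO A 20 of 77 members passed the upper of these limits and 1 the lower, and in KO B these were 11 and 0. In cluster 4 the counts were 5 and 6 in KO A and 5 and 9 in KO B. Mrps18a again led, with 0.260 in cluster 2, 0.846 in cluster 4 and 1.00 in cluster 5 of KO A, and 0.266, 0.737 and 0.798 in KO B. Mrpl33, a small protein near the tRNA exit site, went from 0.797 to 1.74 and 2.19 in KO A and from 0.967 to 1.83 and 2.16 in KO B. Mrpl27, which reaches the peptidyl transferase centre, went from 0.361 to 0.587 and 0.825 in KO A and from 0.341 to 0.624 and 0.690 in KO B. The lowest mean ratios belonged to Mrpl34, Mrps21, Mrpl22 and Mrpl28. Mrpl28 went from 2.95 to 1.91 and 2.24 in KO A and from 3.24 to 1.92 and 2.33 in KO B.

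KO and WT were compared per library on log2(normalised UMIs per cell + 0.01) with limma, for genes with a mean level of at least 0.05, and a gene was called at a Benjamini-Hochberg adjusted p under 0.05. This scale understates the change of low genes. Of the members, 77 passed the filter in each comparison. Mrpl53, a protein at the stalk base, was the exception with 21 UMIs in all cells together, and it had 0 UMIs in cluster 1 of WT and KO A. In each class of cells the test compares 1 WT with 2 KO libraries. The WT library has no partner, and the fit takes its spread from the KO libraries. An exact permutation test of 1 against 2 cannot go below p = 0.333.

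Over all cells, 3 members were called higher and 20 lower in KO, where 18.3% of all tested genes were called higher and 14.8% lower. The median log2 change of the 77 was -0.13 beside 0.02 for all genes, and -0.07 without KO A. Both KO libraries lay below WT for 50 members and above it for 17, where 40.4% and 46.0% of all tested genes did so. The largest fall was that of Mrpl13, a large subunit protein of a bacterial family, with a level of 2.18 in WT against 1.26 (KO A) and 1.55 (KO B) (log2 change -0.64, SE 0.12, adjusted p = 0.000251). Mrpl48 stood at 1.54 in WT and at 0.967 and 1.12 in the KO libraries. Mrpl41 stood at 1.18, 0.737 and 0.858, and Mrps16 at 2.87, 1.86 and 2.08. For all 4 both KO libraries lay below WT, a condition for naming them, and KO A lay below KO B. Higher in KO were Mrps15, a small subunit protein that binds rRNA early in assembly (1.09 in WT, 1.72 in KO A, 1.495 in KO B, log2 change 0.55), Mrpl14, a protein of the subunit interface (0.353, 0.490 and 0.512), and Mrpl23, which sits at the tunnel exit (1.63, 1.98 and 2.12). Mrpl23 was not called with TMM or RLE scaling, nor, like Mrpl14, with DESeq2. The split between higher and lower depends on the scaling. With each library scaled to its nuclear UMIs, which raised the median change of all genes by 0.13, 9 members were called higher and 8 lower, and with cells thinned to 5000 UMIs 9 and 7. Relative to the median of all genes, the members' median stayed between -0.20 and -0.09 under every alternative.

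Mitochondrial UMIs differed between the libraries as well, in the opposite order to the members' sum over all cells. Their median share per cell was 5.59% in WT against 9.11% (KO A) and 6.64% (KO B), and KO A, the library with the highest share, also had the lowest sum of Mrpl and Mrps transcripts in clusters 1, 2 and 4 of KO. In cells thinned to 5000 UMIs the median number of member UMIs was 47 in WT against 45 (KO A) and 47 (KO B). Over all cells 7 of 8 leptotene-zygotene markers were called lower in KO and 4 of 6 differentiating markers higher, which was not tested as a part of the members' changes. The part of the mitochondrial share was not tested beyond the scaling to nuclear UMIs.

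In cluster 1, with 45 WT, 66 KO A and 90 KO B cells, limma called 0 members in either direction, where 0.644% of tested genes were called higher and 2.2% lower. At an unadjusted p under 0.05 there were 7 of 77 members with limma, beside 1807 of 11180 tested genes. There were 9 members with edgeR and 0 with DESeq2, and these 2 tools also called 0 after adjustment. The members' median log2 change was -0.11, beside -0.02 for all genes. It was -0.01 without KO A and -0.22 without KO B. The largest differences were those of Mrpl27 (0.766 in WT, 0.411 in KO A, 0.519 in KO B), Mrps34 (0.365, 0.140 and 0.374) and Mrpl45 (0.693, 0.954 and 1.07). For Mrps34, a protein needed for a stable small subunit, KO B lay at the WT value and KO A below it. Markers of peritubular myoid cells were summed at 2769 CPM in this cluster of WT and at 1291 (KO A) and 1546 CPM (KO B), with 5 of 5 markers detected in each, against at most 17.0 CPM in any other cluster. Without the cells that carried at least 10 such UMIs, which are 10 WT, 10 KO A and 13 KO B cells here, Mrps14 alone was called (log2 change -0.56, adjusted p = 0.0245) and the median became -0.19.

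In cluster 2 the members lay lower in KO almost throughout: 68 of 77 had a log2 change below 0, with a median of -0.18 beside 0.03 for all genes. Both KO libraries were below WT for 57 members and above it for 6, whereas over all tested genes 36.8% and 44.2% were so. Stage markers moved too: those of leptotene-zygotene cells were summed at 2108 CPM in WT against 1305 (KO A) and 1560 (KO B), with 3 of 6 tested markers called lower. Those of differentiating spermatogonia were summed at 730, 1032 and 1077 CPM, with 1 of 6 called higher. The part of stage in the members' changes was not tested. Scaled to nuclear UMIs, which raised the median change of all genes by 0.10, 53 of 77 members had a change below 0, with a median of -0.10. The test called 0 members higher and 4 lower, where 2.87% and 1.43% of tested genes were called. Mrpl3, a bacterial-family protein close to the peptidyl transferase centre, stood at 1.26 in WT against 0.722 (KO A) and 0.924 (KO B) (log2 change -0.62, SE 0.15, adjusted p = 0.0394). Mrps16, a small subunit protein of a bacterial family, stood at 2.77, 1.68 and 2.02. Mrpl13 stood at 2.30, 1.47 and 1.76, and Mrpl50, which is specific to mitochondria, at 0.790, 0.535 and 0.572. KO A was the lowest library for each of these 4. The calls are close to the threshold: the count was 0 without the filter on low values (20 members at an unadjusted p under 0.05), 0 with DESeq2 (13) and 0 without doublets (25), while TMM scaling called 25 members, RLE scaling 26 and edgeR 20, all of them lower. Relative to the median of all genes, the members' median was -0.23 with TMM, RLE and edgeR, beside -0.21 with the authors' size factors. With limma 26 members had an unadjusted p under 0.05, as did 2283 of all 9435 tested genes. Globin transcripts stood at 444 CPM in cluster 2 of KO A and at no more than 1.07 CPM in that of the other libraries, and without cells that carried at least 10 globin or somatic UMIs 5 members were called lower.

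**Figure D2:**
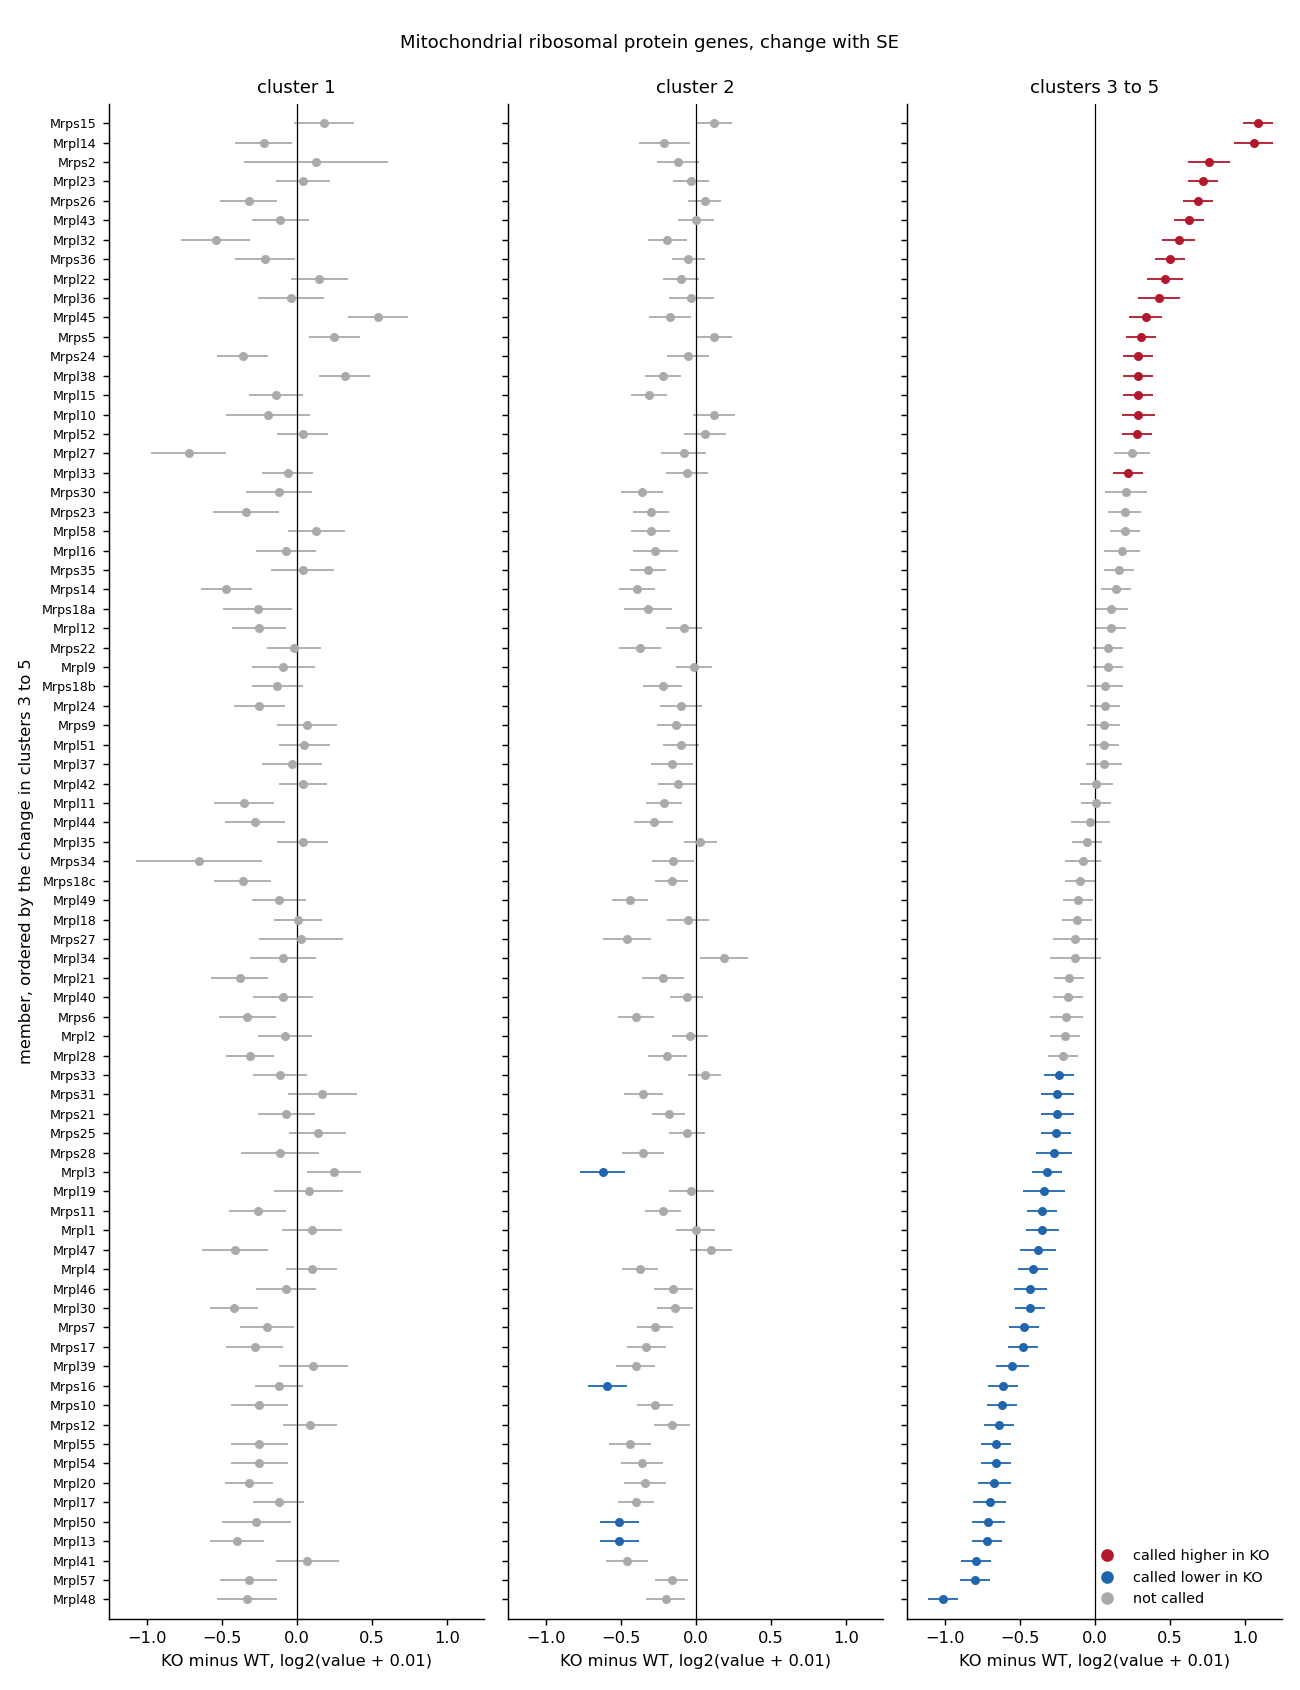
Change of each of the 77 tested members in KO against WT (points, log2 of normalised UMIs per cell + 0.01, with SE as bars) in cluster 1, cluster 2 and clusters 3 to 5. Genes are ordered by the change in clusters 3 to 5, red marks genes called higher, blue lower and grey not called. Cluster 1 has no coloured point and cluster 2 has 4 blue points, whereas clusters 3 to 5 run from -1.01 for Mrpl48 to 1.09 for Mrps15.

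In clusters 3 to 5 members were called in both directions. There 18 members were called higher and 28 lower in KO, where 37.4% of tested genes were called higher and 29.1% lower, and the members' median log2 change was -0.08 beside 0.08 for all genes. It was -0.02 without KO A and -0.05 without KO B. The called members made up 23.4% and 36.4% of the 77. Both KO libraries lay above WT for 31 members and below it for 39, beside 50.8% and 42.0% of all tested genes. The comparison sets WT cells that are mostly of cluster 3 against KO cells of clusters 4 and 5. Of the leptotene-zygotene markers 8 of 8 were called lower in KO here, and of the differentiating markers 5 of 6 higher. Their part in the members' changes was not tested.

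The higher members were led by Mrps15, at 0.841 in WT against 1.90 (KO A) and 1.72 (KO B), a 2.15-fold difference (log2 change 1.09, SE 0.10, adjusted p = 6.42e-26). Mrpl14 stood at 0.284, 0.572 and 0.632, 2.12-fold higher in KO. In both, each KO library was at about the same level and far from WT. Of the small subunit, Mrps2, a bacterial-family protein, stood at 0.254, 0.429 and 0.445, and Mrps26, specific to mitochondria, at 0.956, 1.49 and 1.61. Of the large subunit, Mrpl23 at the tunnel exit stood at 1.37, 2.17 and 2.37, and Mrpl43, specific to mitochondria, at 1.18, 1.75 and 1.91. Mrpl32, a protein that the m-AAA protease matures before it joins the large subunit, stood at 0.522, 0.732 and 0.822. Mrps36, the dehydrogenase subunit, stood at 1.06, 1.43 and 1.58. Both KO libraries were above WT for these 8, which was a condition for naming them.

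The lower members were led by Mrpl48, at 2.27 in WT against 1.04 (KO A) and 1.21 (KO B), which is 49.6% of WT (log2 change -1.01, SE 0.10, adjusted p = 2.23e-22). Mrpl57, specific to mitochondria, stood at 1.83, 1.05 and 1.04, and Mrpl41 at 1.44, 0.768 and 0.894. Mrpl13 stood at 2.09, 1.14 and 1.40 and Mrpl50 at 1.30, 0.761 and 0.821, so both were low in KO here as in cluster 2. Mrpl17, a bacterial-family protein by the tunnel exit, stood at 4.92, 2.90 and 3.15. Mrpl54 at the stalk base stood at 2.62, 1.55 and 1.76, and Mrpl55 at 2.63, 1.49 and 1.85. These 8, the strongest by p value, are all large subunit genes, and the small subunit members next to them were Mrps12, Mrps10 and Mrps16 with log2 changes of -0.64, -0.62 and -0.61. In the RefSeq annotation of GRCm38.p6, 21 of the 78 members overlap another gene of the matrix. Mrpl48 shares 727 bases with Rab6a, Mrpl14 622 with Tmem63b, Mrpl43 780 with Twnk and Mrps18a 6871 with Rsph9. The sources used here do not say how reads in such stretches were assigned.

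**Figure D3:**
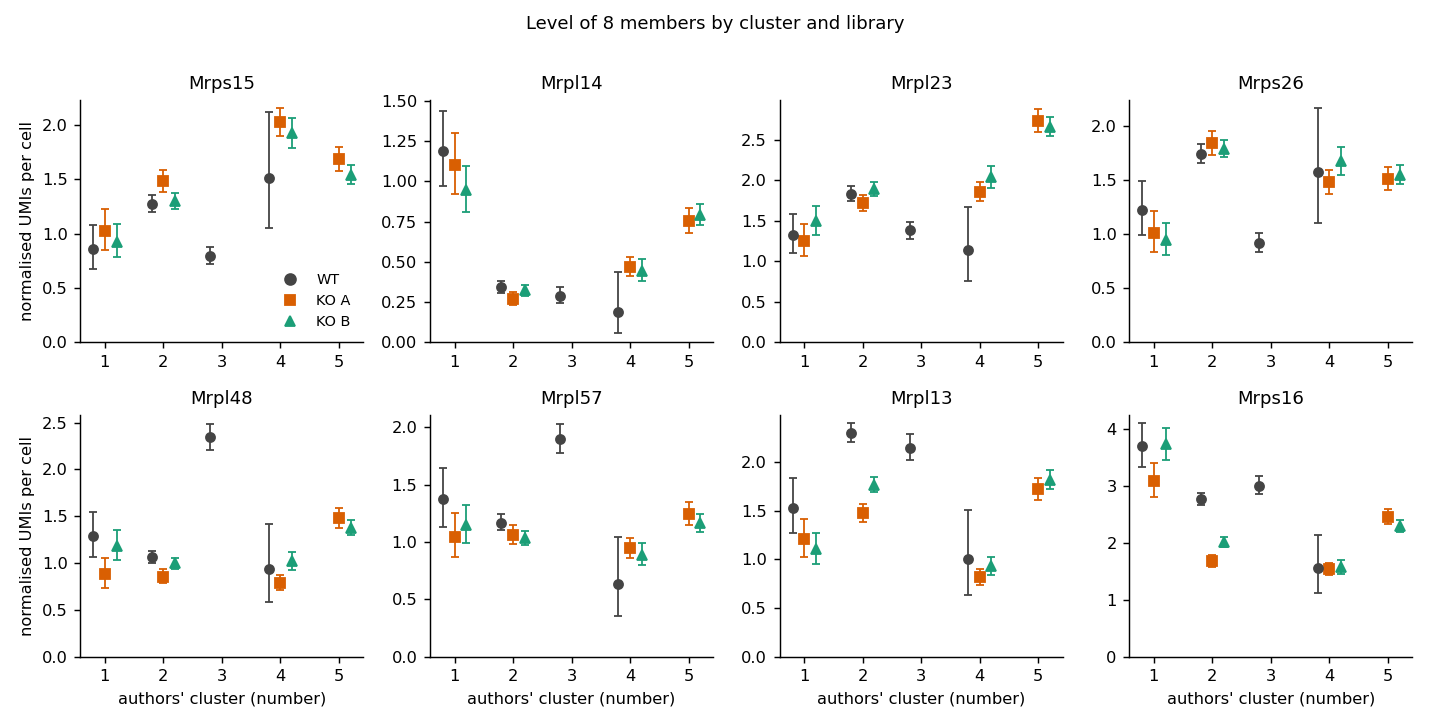
Level (normalised UMIs per cell, exact Poisson 95% intervals for counting error) of 4 members that were higher in KO clusters 3 to 5 (top row) and 4 that were lower (bottom row), by authors' cluster and library. WT is dark, KO A orange and KO B green. Mrpl48 and Mrpl57 are high in WT cluster 3 alone, and Mrps15 is lower there than in KO clusters 4 and 5.

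Set out by cluster, Mrps15 stood at 0.797 in WT cluster 3, at 2.02 and 1.92 in cluster 4 of KO A and KO B and at 1.68 and 1.54 in cluster 5. The 24 WT cells of cluster 4 had 1.51 (exact Poisson 95% interval 1.05 to 2.12), nearer to the KO cells of that cluster than to WT cluster 3. Mrpl48 stood at 2.34 in WT cluster 3, at 0.787 and 1.02 in KO cluster 4 and at 1.48 and 1.38 in KO cluster 5, and the WT cells of cluster 4 had 0.936 (0.587 to 1.42). Mrpl13 showed the same order, with 2.15 in WT cluster 3, 0.817 and 0.928 in KO cluster 4, 1.72 and 1.82 in KO cluster 5 and 1.00 (0.636 to 1.51) in the WT cells of cluster 4. Mrpl14 differed, with 0.290 in WT cluster 3, 0.468 and 0.445 in KO cluster 4, 0.755 and 0.794 in KO cluster 5 and 0.188 (0.0610 to 0.438) in the WT cells of cluster 4. The intervals cover counting error only. Set against WT cluster 3 alone, a comparison added after the data were seen, KO cluster 4 had 13 members called higher and 38 lower, where 36.1% and 28.3% of tested genes were called. KO cluster 5 had 29 higher and 21 lower, where these shares were 35.3% and 28.3%.

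Scaling moved this split too. With libraries scaled to nuclear UMIs, which raised the median change of all genes by 0.16, 32 members were called higher and 14 lower, and with cells thinned to 5000 UMIs 26 and 18. DESeq2 called 7 higher and 18 lower. Of the 16 members named above, the 8 strongest in each direction, 15 were called in every alternative, and Mrps36 was lost with DESeq2. Across the alternatives on the same cells, the members' median relative to all genes was between -0.16 and -0.09. Against WT cluster 3 it was -0.31 for KO cluster 4 alone and -0.08 for KO cluster 5 alone, so it differed with the KO cluster used.

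The effect of the KO was compared between classes by testing the log2 difference of clusters 3 to 5 minus cluster 2 within each library. On this measure 25 members were called higher and 12 lower, where 29.0% of tested genes were higher and 21.4% lower, with a median of 0.16 beside 0.07 for all genes. Mrpl14 had the largest difference, 1.27 (SE 0.17, adjusted p = 5.8e-12). It lay below WT in both KO libraries of cluster 2 (0.343 in WT, 0.270 and 0.324 in KO) and far above WT in clusters 3 to 5. Mrps15 followed with 0.97, from near-equal levels in cluster 2 (1.28, 1.48 and 1.30). At the low end Mrpl48 had -0.81, with cluster 2 levels of 1.06, 0.857 and 0.998, and Mrpl57 -0.64. Scaling to nuclear UMIs gave 34 higher and 4 lower, TMM scaling 30 and 5, and DESeq2 5 and 2. Relative to the median of all genes, the members' median was 0.09, 0.09 and 0.08 in the same order, beside 0.09 with the authors' size factors.

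Some members were followed for their role, whatever their values. Mrpl10 and Mrpl12 form the stalk that recruits translation factors. Mrpl10 was called higher in clusters 3 to 5 (0.602 in WT, 0.734 in KO A, 0.746 in KO B) but not with edgeR or DESeq2, and Mrpl12 was not called (1.04, 1.07 and 1.17). Mrps12, the decoding centre protein, was called lower (1.48, 0.925 and 0.968). Mrpl45, which holds the ribosome to the inner membrane, was called higher (0.586, 0.733 and 0.753), again not with edgeR or DESeq2. Mrpl44, a protein with an RNase III fold, was not called (0.462, 0.473 and 0.433), with the KO libraries on either side of WT. Mrpl58, a peptidyl-tRNA hydrolase built into the large subunit, was not called (1.00, 1.16 and 1.15). The 3 Mrps18 paralogs, of which each ribosome holds all at different sites, were not called in all cells, cluster 1, cluster 2 or clusters 3 to 5, but Mrps18a was called higher for the difference between clusters 3 to 5 and cluster 2 (0.43, not with DESeq2). In clusters 3 to 5 Mrps18a stood at 0.773, 0.903 and 0.770, Mrps18b at 0.519, 0.524 and 0.567, and Mrps18c at 1.30, 1.15 and 1.29. Mrps30 was not called either (0.319, 0.358 and 0.385). Some of these gained a call in clusters 3 to 5 under alternatives. With nuclear UMIs Mrpl12, Mrpl58, Mrps18a and Mrps30 were called higher, and with thinned cells the last 3 of them. In KO cluster 5 against WT cluster 3 Mrpl12, Mrpl58 and Mrps30 were called higher, and in KO cluster 4 against WT cluster 3 Mrps18c was called lower.

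The members are given next by place in the ribosome, for clusters 3 to 5, where 37.4% of all tested genes were called higher and 29.1% lower. Of the 48 tested Mrpl genes 12 were called higher and 17 lower, and of 29 Mrps genes 6 and 11, with a median log2 change of -0.08 in both. Of 47 bacterial-family members 12 were higher and 17 lower, and of 29 mitochondria-specific ones 5 and 11. Of the 8 proteins around the exit tunnel 3 were higher and 3 lower, of the 8 of the central protuberance 2 and 2, and of the 4 tested at the stalk 1 and 1. In cluster 2 the medians were -0.16 for Mrpl and -0.22 for Mrps genes. The differences between these groups were not tested.

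The other parts of mitochondrial translation gave the following in clusters 3 to 5. There 37.4% of all tested genes were called higher and 29.1% lower. Of 5 mitochondrial ribosomal proteins with other symbols, 2 were called higher, Gadd45gip1 (0.260 in WT, 0.382 in KO A, 0.416 in KO B) and Chchd1 (1.22, 1.46 and 1.69), and 0 lower. Of 15 translation factors 4 were higher and 2 lower, and Tsfm, an elongation factor, stood at 0.649, 1.23 and 1.18. Mrrf, the recycling factor, was lower (0.730, 0.464 and 0.540). Of 15 aminoacyl-tRNA synthetases 4 were higher and 2 lower, with Iars2 at 0.478, 0.802 and 0.679. Among 23 assembly and rRNA modification factors 7 were higher and 3 lower. The 3 lower ones were Mpv17l2 (0.872, 0.221 and 0.229), Tfb1m, the methyltransferase of the small rRNA (0.871, 0.482 and 0.452), and Malsu1, which keeps the new large subunit from joining too soon (2.72, 1.76 and 1.52). Malsu1 binds the ribosome at the Mrpl14 protein, whose transcript was higher. Of 8 genes for the transcription and upkeep of mitochondrial DNA 3 were higher and 1 lower. Tfam, which packages this DNA, was higher (0.442, 1.19 and 1.32), as were Ssbp1, which binds its single strands (1.29, 2.61 and 2.59), and its polymerase Polg (0.715, 1.09 and 1.03). The mitochondrial RNA polymerase Polrmt was lower (0.671, 0.577 and 0.474).

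The RNAs that this ribosome translates are all mitochondrially encoded. Of these 13 mRNAs, 4 were called higher and 1 lower in clusters 3 to 5, beside 37.4% and 29.1% of all tested genes. In cluster 2 they were 2 and 0, beside 2.87% and 1.43%, and in cluster 1 they were 4 and 0, beside 0.644% and 2.2%. Their sum was 799 in WT against 1029 (KO A) and 819 (KO B) in cluster 2. In clusters 3 to 5 it was 696, 859 and 688, so that KO B lay next to WT. Of 88 cytosolic ribosomal proteins, 2 were called higher and 73 lower in clusters 3 to 5, with a median log2 change of -0.71. In cluster 2 their median was -0.22 beside -0.18 for the mitochondrial family, and 1 was called higher and 0 lower. No test compared the families with each other.

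**Figure D4:**
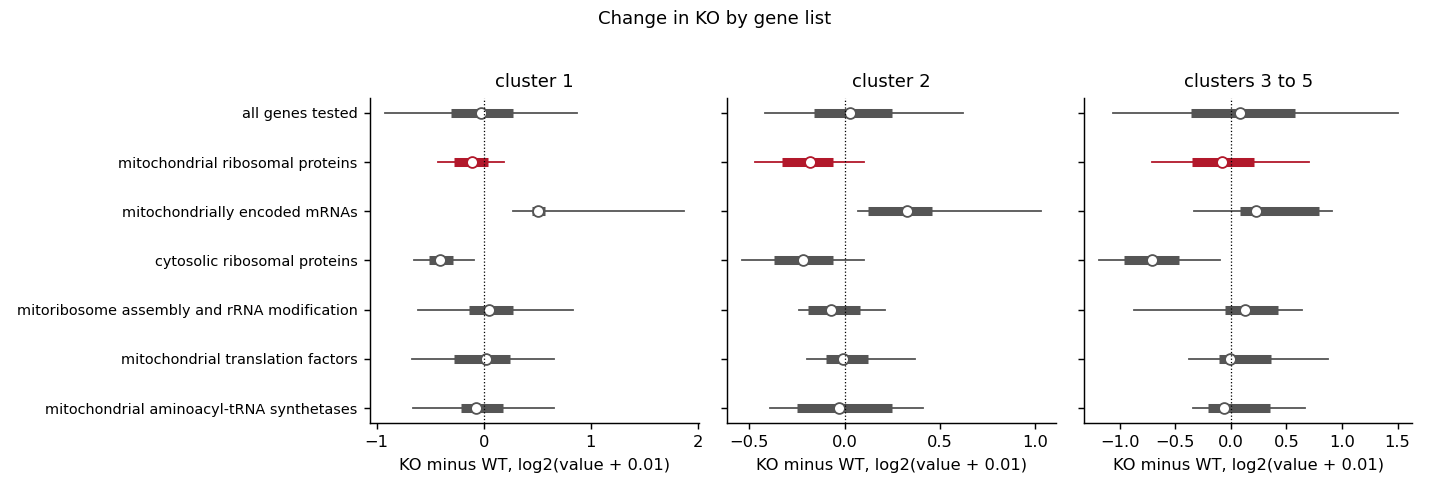
Change in KO against WT (log2 of normalised UMIs per cell + 0.01) by gene list in cluster 1, cluster 2 and clusters 3 to 5. Open points are medians, thick bars run from percentile 25 to 75 of the genes and thin bars from percentile 5 to 95. The mitochondrial ribosomal proteins (red) have medians of -0.11, -0.18 and -0.08, the cytosolic ones -0.41, -0.22 and -0.71, and the mitochondrially encoded mRNAs 0.51, 0.33 and 0.23.

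The deposited gene table also gives each gene a U-motif score, with no unit or method in the sources used here. YTHDC2 is known to bind U-rich motifs in RNA. The members' median score was 0.013, beside 0.011 for all genes and 0.013 for the genes tested in all cells. A score of 0 belonged to 13 of 78 members (16.7%), to 16.6% of all genes and to 10.7% of the genes tested in all cells. Mrpl22 had the highest score, 0.048. The median was 0.015 in the 28 members called lower in clusters 3 to 5, 0.007 in the 18 called higher and 0.013 in the 31 not called. Of the 18 higher members 7 had a score of 0, against 2 of the 28 lower ones. These are descriptions and were not tested.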

How the data were processed

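Single-cell RNA-seq of sorted 4N testis cells was analysed in 1 WT and 2 KO libraries. The submitters' processing notes name Cell Ranger 3.0.2, Scanpy and the builds mm10 and GRCm38. The authors deposited natural log values, ln(1 + count/size factor), for 4528 cells. They also deposited each cell's UMI and gene counts, size factor (a score), mitochondrial fraction and cluster, and a U-motif score per gene. Reversing both steps returned whole counts for 100% of values within 0.001, with 99.9% of the deposited UMIs. The KO libraries could not be tied to particular KO samples.

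Mean count/size factor per library and class was tested on log2(value + 0.01) with limma 3.58.1 in R 4.3.3 (empirical Bayes with trend, genes with a mean of at least 0.05, Benjamini-Hochberg over all genes). edgeR 4.0.16 and DESeq2 1.42.0 were alternatives on the recovered counts, beside other scalings, filters, a pseudocount of 0.1, thinning to 5000 UMIs, and leaving out doublets (Scrublet in Scanpy 1.11.5 marked 6 WT, 5 KO A and 11 KO B cells, otherwise kept) or cells with at least 10 somatic or globin UMIs. The test script was checked on simulated data. The members and gene lists were chosen with earlier results of these data known. Named members were 12 picked for their role and up to 8 called per direction by p. For the latter, both KO libraries had to lie on the same side of WT. Also named were the 3 largest changes per comparison, the 4 highest and lowest cluster steps, and the extremes of the U-motif score. In other lists, up to 3 called genes per direction could be named. Intervals cover counting error only.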

Additional observations from a re-analysis of the deposited data

Results flagged for a closer look

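For 22 named members the KO effect in clusters 3 to 5 differed from that in cluster 2, by the limma test of the difference itself (adjusted p under 0.05). They are the named part of the called members, 25 higher (32.5% of 77) and 12 lower (15.6%). Of all 9823 tested genes, 29.0% were called higher and 21.4% lower on this difference. The differences, in log2 of normalised UMIs per cell + 0.01, were positive for Mrpl14 (1.27), Mrps15 (0.97), Mrps2 (0.88), Mrpl32 (0.76), Mrpl23 (0.75), Mrpl43 (0.63), Mrps26 (0.63), Mrpl15 (0.59), Mrps30 (0.58), Mrps36 (0.55), Mrpl45 (0.51), Mrpl58 (0.50) and Mrps18a (0.43). They were negative for Mrpl48 (-0.81), Mrpl57 (-0.64), Mrpl47 (-0.48), Mrps12 (-0.48), Mrps10 (-0.34), Mrpl41 (-0.33), Mrpl20 (-0.32), Mrpl54 (-0.30) and Mrpl17 (-0.29). The call ended with TMM scaling for Mrpl20, Mrpl41, Mrpl54 and Mrps10. With DESeq2 the calls of Mrpl14, Mrps15, Mrpl23, Mrpl32, Mrpl43, Mrpl48 and Mrpl57 were kept among these members. Cluster and genotype cannot be told apart in this difference, since WT cells of clusters 3 to 5 are mostly of cluster 3 and KO cells of clusters 4 and 5.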

How the results depend on the processing

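No paired analysis was possible because there is 1 WT library and the deposited library numbers only count libraries within a genotype. The count of called members in cluster 2 moved from 4 to 25 with TMM scaling, 26 with RLE scaling, 20 with edgeR, 2 with a pseudocount of 0.1, and 0 without a filter on low values, with DESeq2 or without doublets. With DESeq2 the count fell to 11 (1 higher, 10 lower) from 23 in all cells, to 25 from 46 in clusters 3 to 5 and to 7 (5 higher, 2 lower) from 37 for the difference between classes. In cluster 1 it was 1 without cells carrying somatic UMIs, in place of 0. Counts of members called under alternatives, here and above, stand without the share of all genes called under the same setting. The comparisons of KO cluster 4 or 5 with WT cluster 3 are the exception.

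The log2 ratio of the summed level in KO over WT was -0.15 in all cells, -0.13 in cluster 1, -0.19 in cluster 2 and -0.14 in clusters 3 to 5. In clusters 3 to 5 its sign turned with nuclear UMIs as the scale (0.07) and with cells thinned to 5000 UMIs (0.03). With nuclear UMIs it was -0.02 in all cells and -0.11 in cluster 2, and with thinning it was -0.03 in all cells, -0.05 in cluster 1 and -0.11 in cluster 2. The highest over the lowest summed level, WT cluster 4 left out, was 1.39 with TMM, 1.36 with RLE and 1.14 with nuclear UMIs, in place of 1.26. The median change of members relative to all genes, when 1 KO library was left out at a time, ran from -0.20 to -0.09 in all cells, from -0.19 to 0.00 in cluster 1, from -0.30 to -0.16 in cluster 2 and from -0.12 to -0.09 in clusters 3 to 5; for the difference between classes it was 0.05 and 0.07. Over all named members and alternatives, 1315 values counted as the same, 34 passed the threshold and 68 no longer did. No called value changed sign. Values that were not called could change sign and still count as the same, as Mrpl45 did in all cells without KO B. Leaving out 1 KO library gives no p, so those values could not cross the threshold. Depth was lowest in cluster 1, with 955669 to 1970845 UMIs per library, and in clusters 3 to 5 WT had 5688301 UMIs against 10518233 and 12251061 in KO. With 1 residual degree of freedom, every call draws on variance information pooled over genes.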
